A study of Mus musculus with 8 samples.

Results

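CatSper is the calcium channel of the sperm tail, and transcript abundance of its subunit genes was compared between *Arid1a* WT and *Arid1a* cKO pachytene spermatocytes. The 9 genes were taken by symbol from a list of pore and auxiliary subunits and were matched by Entrez identifier to 9 of the 21058 genes in the deposited tables. They are *Catsper1*, *Catsper2*, *Catsper3*, *Catsper4*, *Catsperb*, *Catsperd*, *Catsperg1*, *Catsperg2* and *Efcab9*. ARID1A is a subunit of the BAF form of the SWI/SNF chromatin remodeler, and the RNA-seq was done to ask how its loss changes transcription at pachynema. The 4 *Arid1a* cKO libraries came from adult males homozygous for the floxed allele (*Arid1a* fl/fl) that carried *Stra8-Cre* Tg/0, a transgene that is active in spermatogonia and later germ cells. The 4 *Arid1a* WT libraries came from adult *Arid1a* fl/fl or *Arid1a* fl/+ males without the transgene, so that both genotypes carried the floxed allele, which was kept on a CD1 background. Cells were purified by Sta-Put sedimentation from the pooled testes of several males, and fractions rich in pachytene spermatocytes were combined. The study describes excision as incomplete, so that *Arid1a* cKO fractions also held spermatocytes with ARID1A. The labels call the libraries biological replicates, but nothing ties each to its own animals, so p-values measure the spread between these libraries.

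In mature sperm the CatSper channel sits in the membrane of the principal piece, where it opens as the cytoplasm becomes alkaline and lets in the calcium that drives hyperactivated swimming. CATSPER1 to CATSPER4 are separate proteins that together line a single pore. CATSPERB, CATSPERG, CATSPERD and CATSPERE are anchored in the membrane and form a canopy over the pore outside the cell, while EFCAB9 and CATSPERZ bind on the inside, where EFCAB9 senses calcium. Loss of a pore subunit leaves male mice infertile. The channel acts in sperm, whereas the RNA measured here came from fractions of testicular germ cells.

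Libraries held 18308621 to 22044353 counts in *Arid1a* WT and 15850842 to 21626689 counts in *Arid1a* cKO. The targeted gene checked the labels: *Arid1a* read 105, 128, 121 and 98.8 CPM (counts scaled to TMM library sizes) in *Arid1a* WT replicates 1 to 4 and 76.4, 81.0, 82.9 and 78.3 CPM in *Arid1a* cKO. This is a log2 fold change of -0.51, with a standard error (SE) of 0.07 (adjusted p = 2.31e-05, edgeR's quasi-likelihood test). The values of the genotypes did not overlap. Of the 17643 genes tested with edgeR, 74.0% were called at an adjusted p of 0.05 or less, 36.5% higher and 37.5% lower in *Arid1a* cKO, so a call by itself sets no gene apart in these libraries.

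The channel's genes did not move together. RNA of the pore subunits *Catsper1*, *Catsper3* and *Catsper4* and of the calcium sensor *Efcab9* was 4.49- to 5.23-fold higher in *Arid1a* cKO, RNA of the canopy subunits *Catsperb*, *Catsperd*, *Catsperg1* and *Catsperg2* was 2.38- to 3.16-fold lower, and *Catsper2*, the remaining pore subunit, was 1.09-fold higher. These folds, like every log2 fold change given with an SE, come from the fit on counts and need not equal the ratio of TPM means. All 9 members had enough counts to be tested, and all 9 were called, 5 higher and 4 lower. The count of 5 includes *Catsper2*, whose call was lost under 5 of 19 alternatives and whose sign turned in TPM. Their median log2 fold change was 0.13, against -0.02 over all genes tested, and it describes none of the members but *Catsper2*. In CPM, the 4 libraries of each genotype did not overlap for any of the 9 members, a separation that 68.9% of all tested genes also showed (34.0% with *Arid1a* cKO higher and 34.9% lower). In bulk RNA, fewer cells of a type and less RNA per cell cannot be told apart.

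Promoter sequences were taken from RefSeq (GRCm38.p6) for 7 of the 9 members; *Catsper1* and *Catsperg2* had no match. Of these, 6 are printed here, from members that went in different directions: 3 that rose, *Catsper2*, and 2 that fell. The promoter of *Catsperg1*, which also fell, is not printed but was searched in the same way. Each is the 180 bases before the most upstream of the gene's listed promoter starts, 5′ to 3′ along the gene. These starts differ from the RefSeq gene ends given further on. The windows of *Efcab9* and *Catsper2* lie wholly inside the gene's span, as does that of *Catsperg1*, and the other printed windows lie partly inside it. Capitals mark the word GGCNGTT, which MYB-family factors such as the pachytene regulator A-MYB recognise, and the word TGACG, the core of a cAMP response element, on either strand. The windows are chr13:55784399-55784578 (plus strand) for *Catsper3*, chr4:134227384-134227563 (minus strand) for *Catsper4*, chr11:32527575-32527754 (minus strand) for *Efcab9*, chr2:121413793-121413972 (minus strand) for *Catsper2*, chr12:101404493-101404672 (plus strand) for *Catsperb* and chr17:56626867-56627046 (plus strand) for *Catsperd*.
Catsper3: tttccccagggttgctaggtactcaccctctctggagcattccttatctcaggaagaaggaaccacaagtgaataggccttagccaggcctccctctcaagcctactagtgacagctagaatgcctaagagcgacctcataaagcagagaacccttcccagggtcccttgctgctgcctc
Catsper4: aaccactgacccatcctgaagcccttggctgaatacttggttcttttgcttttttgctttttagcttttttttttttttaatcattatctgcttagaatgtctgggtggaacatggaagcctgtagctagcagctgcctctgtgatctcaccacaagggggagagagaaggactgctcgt
Efcab9: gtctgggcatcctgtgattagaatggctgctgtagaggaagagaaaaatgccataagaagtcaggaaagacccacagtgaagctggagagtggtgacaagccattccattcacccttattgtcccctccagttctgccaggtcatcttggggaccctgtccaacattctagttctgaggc
Catsper2: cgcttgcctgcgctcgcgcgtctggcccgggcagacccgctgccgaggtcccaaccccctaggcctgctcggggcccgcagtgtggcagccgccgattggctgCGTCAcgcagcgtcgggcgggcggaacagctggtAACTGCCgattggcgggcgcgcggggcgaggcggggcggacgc
Catsperb: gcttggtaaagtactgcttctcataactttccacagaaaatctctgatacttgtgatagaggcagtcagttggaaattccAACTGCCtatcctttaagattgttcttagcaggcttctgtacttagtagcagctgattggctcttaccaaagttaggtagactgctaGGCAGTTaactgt
Catsperd: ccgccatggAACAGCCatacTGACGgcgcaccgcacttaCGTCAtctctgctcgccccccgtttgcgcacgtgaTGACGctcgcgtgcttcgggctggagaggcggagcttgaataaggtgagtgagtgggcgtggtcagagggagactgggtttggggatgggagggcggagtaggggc

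In the 250 bases before the start, GGCNGTT occurred in 3 of the 7 promoters, those of *Catsper2*, *Catsperb* and *Catsperd*, and in 9.83% of the 32851 promoters in the table. *Catsperb* held it at 13 and 100 bases before the start, *Catsper2* at 43 and *Catsperd* at 171. TGACG occurred in *Catsper2* and *Catsperd* and in 17.8% of all promoters, and *Catsperd* held it at 160, 141 and 106 bases before the start. The promoters of *Catsper3*, *Catsper4* and *Efcab9*, which rose, and of *Catsperg1*, which fell, held neither word. Among other CatSper complex genes, described further on, *Tmem262* and *C2cd6*, both higher in *Arid1a* cKO, held GGCNGTT at 96 and 122 bases. Neither word was found in *Catspere1*, *Catspere2* and *Slco6c1*, which were lower, in *Trim69*, which was higher, or in *Catsperz*, which was not called. Of the other words searched on both strands, GTTGCC and ACAATG were found in none of the 7 member promoters and in 10.4% and 10.7% of all. Among members, CCAAT was found in *Catsper2* and *Catsperb* and in 33.8% of all promoters, and TATAAA in *Catsperg1* and in 12.4%. No match of one word overlapped a match of another in these promoters. The promoters also differed in CpG: *Catsper3*, *Catsper4* and *Efcab9* had 2, 1 and 1 CpG dinucleotides in 250 bases, *Catsperb* 1 and *Catsperg1* 5, but *Catsper2* and *Catsperd* had 35 and 25. The median over all promoters was 6.0, 29.0% had 2 or fewer, and 10.7% had 25 or more. A match is a description of letters, and no factor binding was measured here.

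The pore subunits were taken first. *Catsper1* lies on chromosome 19 of GRCm38 from 5335615 to 5344281 and encodes the subunit whose histidine-rich amino terminus faces the cytoplasm. Its abundance was 25.4, 28.2, 31.1 and 28.4 TPM (a level per transcript length) in *Arid1a* WT replicates 1 to 4, and 132, 141, 138 and 133 TPM in *Arid1a* cKO. The lowest *Arid1a* cKO library thus lay far above the highest *Arid1a* WT library. On the counts, its log2 fold change was 2.39 (SE 0.05, adjusted p = 5.40e-14, edgeR, with Benjamini-Hochberg adjustment over all tested genes), and 4.02% of all tested genes rose by more.

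*Catsper3* (chromosome 13, 55784500 to 55824048) and *Catsper4* (chromosome 4, 134211965 to 134227431) followed the same course. *Catsper3* read 28.0, 25.7, 32.4 and 28.3 TPM in *Arid1a* WT and 121, 117, 115 and 112 TPM in *Arid1a* cKO. *Catsper4* read 25.3, 28.3, 32.0 and 26.1 TPM in *Arid1a* WT and 117, 116, 115 and 117 TPM in *Arid1a* cKO. Neither gene overlapped between genotypes. The log2 fold change was 2.17 for *Catsper3* (SE 0.07, adjusted p = 5.88e-13, edgeR) and 2.25 for *Catsper4* (SE 0.06, adjusted p = 8.67e-14, edgeR). In every library the ratio of *Catsper3* to *Catsper4* TPM lay between 0.908 and 1.105, with a mean of 1.03 in *Arid1a* WT and 1.00 in *Arid1a* cKO.

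*Catsper2* (chromosome 2, 121391633 to 121414598) stood apart from the other pore subunits. It read 212, 226, 234 and 210 TPM in *Arid1a* WT and 219, 218, 219 and 211 TPM in *Arid1a* cKO, and on this scale the genotypes overlapped. In CPM it read 315, 316, 322 and 311 in *Arid1a* WT and 357, 346, 346 and 335 in *Arid1a* cKO. Its change in log2 units was 0.13 (SE 0.04, adjusted p = 0.0147, edgeR), but the sign turned on the TPM scale, to -0.02 (adjusted p = 0.65, limma on log2(TPM + 1)). Without TMM scaling it was 0.03 and was not called (adjusted p = 0.513, edgeR). The direction of *Catsper2* therefore cannot be given, while a change of the size seen in the other pore subunits lies far outside its interval of 0.04 to 0.22 (2 SE on either side). The gene shares its locus with *Pdia3* on the opposite strand and a processed pseudogene on its own strand, and whether strand was used in counting is not given in the sources used here.

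**Figure D1:**
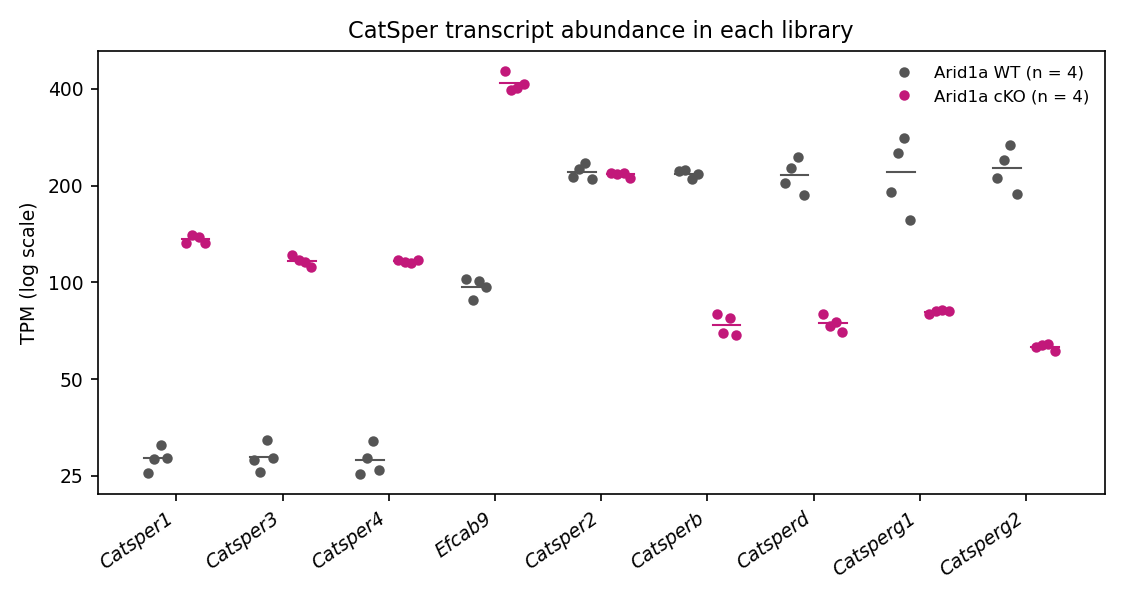
TPM (log scale) of the 9 members in each library, with a point for each of 4 *Arid1a* WT and 4 *Arid1a* cKO libraries and a line at the mean. *Catsper1*, *Catsper3* and *Catsper4* lie near 28 TPM in *Arid1a* WT and at 112 to 141 TPM in *Arid1a* cKO, *Catsper2* stays between 210 and 234 TPM, and the 4 canopy genes fall from 156 to 281 TPM to 60.9 to 81.8 TPM.

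*Efcab9* encodes an EF-hand protein that confers calcium and pH dependence on the channel. Located on chromosome 11 from 32522733 to 32533240, it read 102, 88.3, 101 and 96.8 TPM in *Arid1a* WT and 455, 396, 403 and 413 TPM in *Arid1a* cKO. It was the most abundant member per transcript length in *Arid1a* cKO, whereas 5 members lay above it in *Arid1a* WT. Its log2 fold change was 2.23 (SE 0.07, adjusted p = 1.24e-12, edgeR), close in value to those of *Catsper1*, *Catsper3* and *Catsper4*.

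The canopy subunits fell. *Catsperb* (chromosome 12, 101404645 to 101626009), the beta subunit, read 221, 224, 209 and 218 TPM in *Arid1a* WT and 79.6, 69.7, 77.4 and 68.7 TPM in *Arid1a* cKO. Its change in log2 units was -1.44 (SE 0.07, adjusted p = 9.26e-11, edgeR). *Catsperd* (chromosome 17, 56626911 to 56664456), the delta subunit, which is required for a stable channel complex, read 204, 227, 246 and 187 TPM in *Arid1a* WT and 79.9, 73.1, 75.1 and 70.1 TPM in *Arid1a* cKO. For both genes, every *Arid1a* cKO library lay far below the lowest *Arid1a* WT library. The log2 fold change of *Catsperd* was -1.32 (SE 0.06, adjusted p = 2.99e-11, edgeR). Of the 31-base words in *Catsperb* transcripts, 14.1% also occur in the predicted gene *Gm18795*, and for *Catsperd* the words shared with any gene came to 0.307%.

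*Catsperg1* (29181532 to 29215589) and *Catsperg2* (29697217 to 29727049) are neighbouring copies of the gamma subunit gene on chromosome 7. *Catsperg1* read 191, 253, 281 and 156 TPM in *Arid1a* WT and 79.5, 81.4, 81.8 and 81.6 TPM in *Arid1a* cKO. *Catsperg2* read 211, 240, 268 and 188 TPM in *Arid1a* WT and 62.8, 63.8, 64.2 and 60.9 TPM in *Arid1a* cKO. Both were lower in every *Arid1a* cKO library, and their *Arid1a* WT libraries spread widely. The log2 fold change was -1.25 for *Catsperg1* (SE 0.13, adjusted p = 4.22e-07, edgeR) and -1.66 for *Catsperg2* (SE 0.07, adjusted p = 2.42e-11, edgeR). The copies share 55.3% and 56.2% of their 31-base words with each other, so the split of reads between them is uncertain. With both summed before the fit, a setting chosen after seeing the data, the log2 fold change was -1.47 (SE 0.09). The difference between the copies was not tested.

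The spread among *Arid1a* WT libraries was largest at *Catsperg1*, where the highest library held 1.73 times the CPM of the lowest, against 1.03 times in *Arid1a* cKO. *Arid1a* WT replicate 3 was the highest and replicate 4 the lowest for *Catsper2*, *Catsperd*, both gamma genes and both epsilon genes, which is 6 of the 16 CatSper genes tested. The order was the reverse, with replicate 4 highest and replicate 3 lowest, for *Catsperz*, *C2cd6* and *Trim69*, and replicate 4 was also highest for *Slco6c1*. *Arid1a* itself was lowest in replicate 4. When single libraries were omitted, *Catsperg1* stayed at log2 fold changes of -1.36 to -1.13.

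Per transcript length, the members fell into levels that differed between the genotypes. In *Arid1a* WT the 4 canopy genes and *Catsper2* had means of 216 to 227 TPM, a 1.05-fold range in which each gene overlapped the next in order. *Efcab9* followed at 97.0 ± 6.21 TPM (SD, n = 4), apart from both neighbours. *Catsper3*, *Catsper1* and *Catsper4* came last, with means of 28.6, 28.3 and 27.9 TPM that overlapped. The pore genes thus spanned a 7.90-fold range in *Arid1a* WT, with *Catsper2* on the level of the canopy genes.

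In *Arid1a* cKO the order was *Efcab9* (417 ± 26.1 TPM, SD, n = 4), *Catsper2* (217 ± 3.69), *Catsper1* (136 ± 3.99), then *Catsper4* and *Catsper3*, both with a mean of 116 TPM. The canopy genes came last, at 81.1 TPM for *Catsperg1*, 74.6 for *Catsperd*, 73.8 for *Catsperb* and 62.9 for *Catsperg2*. *Catsper4* and *Catsper3* overlapped, as did *Catsperg1* with *Catsperd* and *Catsperd* with *Catsperb*, and all other neighbours were apart. The pore genes now lay within a 1.86-fold range. The ratio of *Catsper1* to *Catsperb* TPM was 0.115, 0.126, 0.149 and 0.131 in *Arid1a* WT and 1.67, 2.02, 1.79 and 1.93 in *Arid1a* cKO, so the pore gene was below the canopy gene in every *Arid1a* WT library and above it in every *Arid1a* cKO library. The ratio of *Catsperb* to *Catsperd* had means of 1.02 and 0.990.

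**Figure D2:**
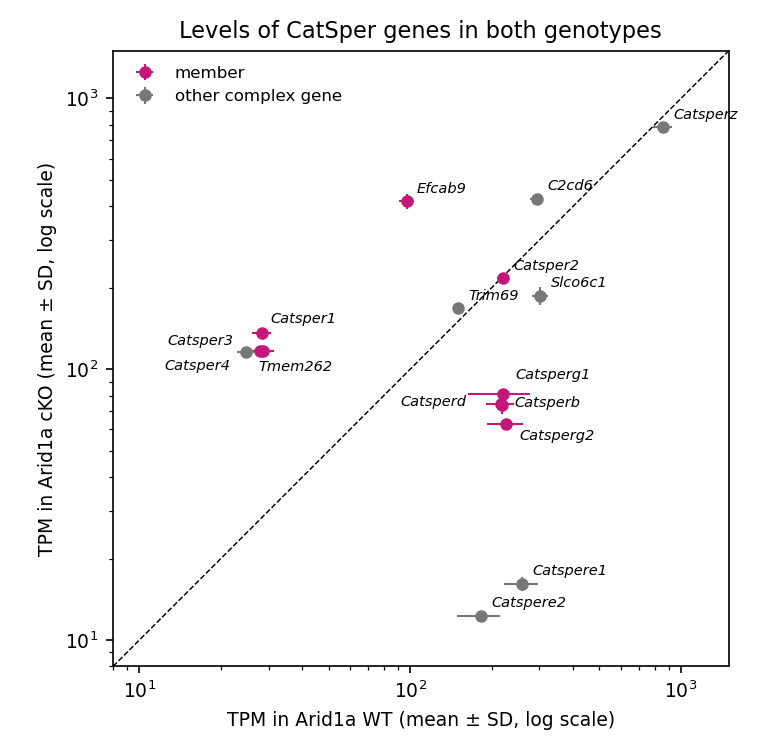
Mean TPM in *Arid1a* cKO (vertical, log scale) against mean TPM in *Arid1a* WT (horizontal, log scale) for 9 members and 7 other genes of the complex, with SD over 4 libraries as bars and a dashed line of equality. *Catsper1*, *Catsper3*, *Catsper4*, *Tmem262* and *Efcab9* lie above the line, *Catsper2* and *Catsperz* near it, and the canopy genes below it.

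Other genes of the CatSper complex were listed separately, and 7 of 8 were in the tables (*Tmem249* was not analysed here). Of these, 3 were called higher, 3 lower and 1 was not called, with a median log2 fold change of -0.02. The epsilon subunit genes fell furthest. *Catspere1* (chromosome 1, 177808419 to 177962253) read 266, 267, 295 and 208 TPM in *Arid1a* WT and 17.5, 15.4, 15.6 and 16.05 TPM in *Arid1a* cKO. On the counts it was 14.5-fold lower, a log2 fold change of -3.86 (SE 0.09, adjusted p = 7.78e-14, edgeR), and only 26 of the 17643 genes tested had a lower value. *Catspere2*, its neighbour on chromosome 1, read 183, 192, 216 and 137 TPM in *Arid1a* WT and 12.5, 12.7, 11.9 and 12.2 TPM in *Arid1a* cKO, and its log2 fold change on the counts was -3.83 (SE 0.11). The 2 genes share 36.7% and 20.5% of their 31-base words with each other. Summed before the fit, they gave -3.85 (SE 0.10). In *Arid1a* WT their means were 259 TPM for *Catspere1* and 182 TPM for *Catspere2*, on either side of the means of the other canopy genes, and in *Arid1a* cKO they stood below all 9 members.

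*Tmem262*, which encodes a small membrane protein of the assembled channel, rose with *Catsper1*, *Catsper3* and *Catsper4*. It read 25.2, 24.7, 26.7 and 22.5 TPM in *Arid1a* WT and 113, 118, 122 and 112 TPM in *Arid1a* cKO, and its log2 fold change on the counts was 2.34 (SE 0.07, adjusted p = 2.79e-13, edgeR). It overlaps *Zfpl1* and a predicted gene on the opposite strand. *C2cd6*, whose product helps to bring the channel into the tail, rose by 0.70 log2 units (SE 0.06, adjusted p = 5.47e-08, edgeR) in the fit on counts, and its mean TPM was 293 in *Arid1a* WT and 426 in *Arid1a* cKO. *Trim69* rose by 0.30 (SE 0.05), and *Slco6c1*, a transporter family member bound to the channel, fell by 0.56 log2 units (SE 0.08, adjusted p = 1.33e-05, edgeR).

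*Catsperz*, the partner of *Efcab9*, read 911, 820, 780 and 928 TPM in *Arid1a* WT and 819, 788, 767 and 767 TPM in *Arid1a* cKO. The genotypes overlapped, and its log2 fold change was -0.02 with an interval of -0.17 to 0.14 (2 SE on either side, adjusted p = 0.861, edgeR). A change as large as that of *Efcab9* lies outside this interval. Accordingly the ratio of *Efcab9* to *Catsperz* TPM went from 0.113 ± 0.0109 in *Arid1a* WT to 0.531 ± 0.0219 in *Arid1a* cKO (SD, n = 4). *Catsperz* shares 38.3% of its 31-base words with the overlapping gene *Kcnk4*.

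**Figure D3:**
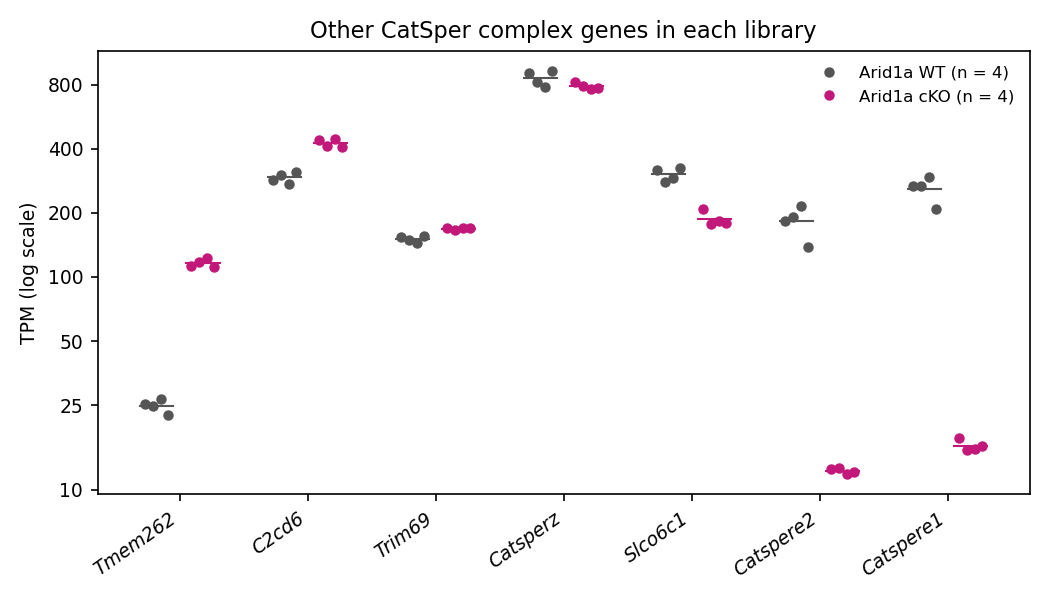
TPM (log scale) of 7 other CatSper complex genes in each library, with a point per library (4 *Arid1a* WT, 4 *Arid1a* cKO) and a line at the mean. *Catspere1* and *Catspere2* drop from 137 to 295 TPM to 11.9 to 17.5 TPM, *Tmem262* rises from 22.5 to 26.7 TPM to 112 to 122 TPM, and *Catsperz* overlaps between genotypes.

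Genes of ion transport and cAMP signalling that act with CatSper in the sperm tail also went both ways. Of 11 listed, 6 were higher, 4 lower and 1 (*Hvcn1*, the proton channel, at 0.970 and 1.13 CPM in *Arid1a* WT and *Arid1a* cKO) was not called, and the median log2 fold change was 0.58. That median is the value of *Slc9b2*, a sodium-proton exchanger family member, whose call was lost under 2 of 19 alternatives. The largest rises were those of *Kcnu1*, the SLO3 potassium channel (2.27, SE 0.06), *Atp1a4*, the sodium pump subunit of sperm (2.21, SE 0.06), and *Lrrc52*, the SLO3 partner subunit (2.08, SE 0.07). The largest falls were those of *Atp2b4*, the plasma membrane calcium pump (-1.76, SE 0.05), *Slc9c1*, the sperm sodium-proton exchanger (-0.93, SE 0.06), and *Slc26a8*, an anion transporter (-0.42, SE 0.05). All 6 were called (edgeR). 

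Other voltage-gated calcium channels are the wider family to which CatSper pore proteins are related. The list read for them held 20 genes, including auxiliary subunits (the *Cacna2d* and *Cacnb* genes) and the *Tpcn* channels. One, *Cacna1f*, had too few counts, and of the 19 tested 11 were higher, 5 lower and 3 not called, with a median of 0.52. Of the 11, *Cacna1e* was not called under 11 of 19 alternatives, *Cacna1d* under 6 and *Cacna1g* under 2, and of the 5 lower *Tpcn2* was not called under 1. The median is the value of *Cacna1e*. *Cacna2d1*, *Cacnb2* and *Cacna1a* rose most, by 2.08, 1.81 and 1.74 log2 units. *Cacna1i*, *Cacnb4* and *Cacna1h* fell most, with log2 fold changes of -2.65, -2.16 and -0.91 (edgeR, all 6 called). Sizes at low abundance moved with the scale: on log2(TPM + 1), *Cacna1i* was at -1.26 and *Cacnb2* at 0.54, and with length offsets *Cacnb4* was at -4.38, all still called. As a set they were far less abundant than CatSper: their TPM summed to 125 to 195 per library over the whole list, where the 9 members summed to 1139 to 1434. *Cacna1h*, a T-type channel, made up 115 TPM of that in *Arid1a* WT.

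Markers of the cells that a Sta-Put fraction can hold were read in the same libraries. All 14 spermatid markers were higher, by 1.79 to 2.28 log2 units (median 2.15), and their summed TPM was 7018 to 8001 in *Arid1a* WT and 28629 to 30463 in *Arid1a* cKO, led by *Prm1* and *Tnp1*. The log2 fold changes of *Catsper1*, *Catsper3*, *Catsper4* and *Efcab9*, 2.17 to 2.39, lay in or just above this range. The part of spermatid RNA in their rise was not tested.

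Of 11 pachytene markers, 9 were lower and 2 higher, with a median of -0.75 and a range from -3.88 (*Piwil1*) to 0.83 (*Sycp1*). *Ldhc* and *Hspa2*, the most abundant of them, had log2 fold changes of -0.19 and -0.27, and summed TPM was 8332 to 9294 in *Arid1a* WT and 5912 to 6241 in *Arid1a* cKO. These 2 genes carried most of the sum. The 2 largest falls were those of *Piwil1*, at 36.9 TPM in *Arid1a* cKO (598 in *Arid1a* WT), and *Mlh3*, at 5.64 TPM (30.7). The 2 higher markers were *Sycp1*, at 137 TPM in *Arid1a* cKO (78.5 in *Arid1a* WT), and *Ccna1*, at 208 TPM (207). On the counts, the log2 fold change of *Ccna1* was 0.15. The 4 canopy members, at -1.66 to -1.25, and *Catspere1* and *Catspere2*, at -3.86 and -3.83, lay within the range of the 11 pachytene markers and beyond their median. That wide range also held *Catsper2*, *Catsperz*, *C2cd6*, *Trim69* and *Slco6c1*. All 8 Sertoli markers were lower (median -1.55, range -1.99 to -1.32, led by *Clu* and *Amhr2*), with summed TPM of 440 to 509 in *Arid1a* WT and 114 to 121 in *Arid1a* cKO. *Catsperb* and *Catsperg2* lay within the Sertoli range, *Catsperd* and *Catsperg1* above it, and *Catspere1* and *Catspere2* below it. Of 6 Leydig markers 5 were lower (median -2.92, led by *Insl3* and *Cyp17a1*), with summed TPM of 76.7 to 89.9 and 6.96 to 8.59. Of 8 spermatogonial markers 7 were higher (median 0.44, led by *Uchl1* and *Dmrt1*), and all 5 macrophage markers were higher (median 1.63, led by *Lyz2* and *Adgre1*) at summed TPM of no more than 11.1. None of the markers had a mean of 0 in either genotype, and the part of any of these cells in the CatSper differences was not tested.

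**Figure D4:**
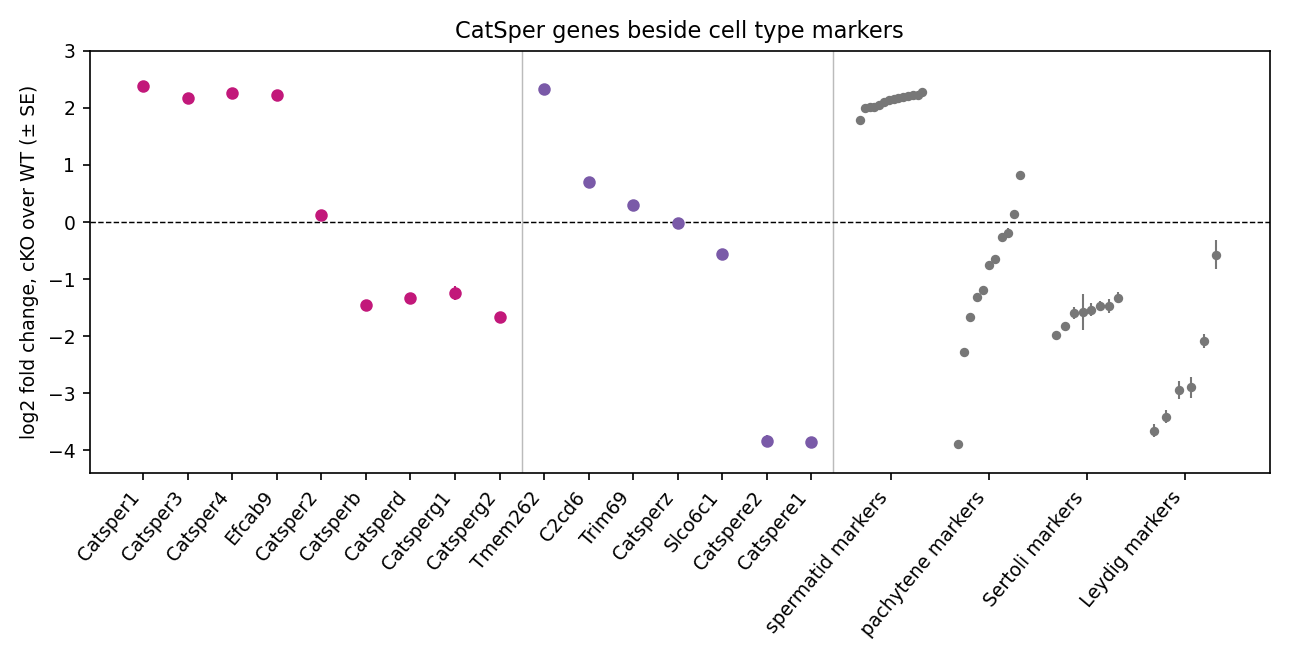
Log2 fold change of *Arid1a* cKO over *Arid1a* WT, with SEs from edgeR, for 9 members (left), 7 other CatSper complex genes (middle) and the markers of 4 cell types (right, a point per gene in ascending order). *Catsper1*, *Catsper3*, *Catsper4*, *Efcab9* and *Tmem262* lie at 2.17 to 2.39 beside 14 spermatid markers at 1.79 to 2.28, and the canopy genes lie at -1.25 and below.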

How the data were processed

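RNA-seq of purified pachytene spermatocytes (4 *Arid1a* WT and 4 *Arid1a* cKO libraries) was read from 2 deposited tables. Per the study's methods and the submitters' notes, the authors ran Salmon, and tximport then collapsed its transcript estimates to Entrez genes (mm10). Salmon's version is not given in the sources used here. The deposited estimated counts were not scaled for depth or transcript length, and the deposited TPM was scaled by the authors to the whole library. A table of the authors' own DESeq2 fold changes and p-values was not used. All columns were matched to samples by genotype and number.

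Estimated counts were rounded. Genes with a total of at least 10 counts were tested with edgeR 4.0.16 (TMM, glmQLFit and glmQLFTest) in R 4.3.3, with Benjamini-Hochberg adjustment over all 17643 genes. SEs were derived from each gene's log2 fold change and F statistic. Symbols came from RefSeq GRCm38.p6 (mm10 is GRCm38) for 21036 of 21058 genes, and shared 31-base words from GENCODE M21 transcripts. No replicate pair agreed within sampling noise (chi-square per degree of freedom 1.71 to 18.0). The code was tested on simulated data.

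Alternatives were DESeq2 1.42.0, other scalings and filters, offsets for transcript length, limma 3.58.1 on log2(TPM + 1) and log2(TPM + 0.1), a stricter threshold, a replicate block, each library left out and, chosen after seeing the data, paralog pairs summed. Members and lists were chosen with earlier results of these data known. The text names all members, *Arid1a*, the other CatSper genes, the 3 largest called rises and falls of each further list, and the 2 most abundant markers per cell type by TPM over both genotypes. *Piwil1*, *Mlh3*, *Sycp1*, *Ccna1*, *Hvcn1* and *Cacna1f* were named after their values were seen. So were *Cacna1c*, *Cacna1d*, *Cacna1e*, *Cacna1g*, *Cacna2d4*, *Tpcn2* and *Slc9b2*, for calls that changed between settings.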

Additional observations from a re-analysis of the deposited data

Results flagged for a closer look

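In each genotype, 17 genes (16 CatSper genes and *Arid1a*) were searched for a single library apart from the remaining 3, using the gap to the nearest library divided by the range of the 4. Of the 34 groups of 4 libraries, 3 passed Dixon's critical value at the 95% level, where chance gives about 1.7. *Catsper4* was high in *Arid1a* WT replicate 3, at 30.5 CPM against 26.7 to 27.2 CPM, and in *Arid1a* cKO replicate 1, at 139 CPM against 130 to 131 CPM. *Slco6c1* was high in *Arid1a* cKO replicate 1, at 376 CPM against 315 to 324 CPM. Without these libraries *Catsper4* and *Slco6c1* were still called in the same direction.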

How the results depend on the processing

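Of the 9 members, 8 kept their direction and their call under all alternatives run. Over these, the log2 fold change ranged from 2.23 to 2.42 for *Catsper1*, 1.99 to 2.21 for *Catsper3*, 2.03 to 2.30 for *Catsper4*, 2.09 to 2.28 for *Efcab9*, -1.56 to -1.41 for *Catsperb*, -1.53 to -1.29 for *Catsperd*, -1.40 to -1.13 for *Catsperg1* (the sum of both gamma genes gave -1.47) and -1.84 to -1.59 for *Catsperg2*. *Catsper2* did not: its log2 fold change was 0.030 with library size alone, 0.074 with length offsets, and -0.023 on both log2(TPM + 1) and log2(TPM + 0.1), none of them called, and at an adjusted p threshold of 0.01 its value of 0.13 was not called. The cause was not tested. Its adjusted p over the alternatives ran from 4.95e-05 to 0.653. *Arid1a* and the 6 other CatSper genes that were called kept their calls throughout, and *Catsperz* was called under none. Library size alone moved the median of all genes to -0.12. Replicate numbers are shared by the genotypes only as numbers: deviations of same-numbered libraries correlated at -0.0299 to 0.0357. With the number as a replicate block, 6429 genes were called higher and 6671 lower, and the values were 2.39 for *Catsper1*, -1.45 for *Catsperb* and 0.13 for *Catsper2*. Among the other calcium channel genes, the call of *Cacna1e* was lost under 11 of 19 alternatives, that of *Cacna1d* under 6, that of *Cacna1g* under 2 and that of *Tpcn2* under 1. *Slc9b2*, of the ion transport genes, lost its call under 2, and *Cacna1c* and *Cacna2d4* gained one.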
